A study of Mus musculus with 6 samples.

Results

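The matrix metalloproteinases (MMPs), the related ADAMTS proteases, the ADAMTS-like (ADAMTSL) proteins and the tissue inhibitors of metalloproteinases (TIMPs) were examined in native cardiac fibroblasts (CFs) of mice lacking the long noncoding RNA Charme. Members were taken by gene symbol, as every gene of the count table named Mmp, Timp, Adamts or Adamtsl and followed by its number. They numbered 51 of the 49548 genes, with 23 MMP, 4 TIMP, 19 ADAMTS and 5 ADAMTSL genes. A gene was tested where 2 or more of the 6 libraries held 10 or more counts, which left 38 members for testing and 13 with too few.

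Native CFs came from the hearts of 3 wildtype (WT) and 3 CharmeKO C57BL/6J mice at 5 weeks of age, and the question was how the loss of Charme alters the stromal transcriptome. In CharmeKO mice a poly(A) signal inserted in the Charme locus ends transcription of the gene early, and the allele is constitutive and not restricted to fibroblasts. Hearts were dissociated enzymatically, and the non-cardiomyocyte fraction was freed of red cells and depleted of hematopoietic lineages with magnetic beads. That depletion does not target endothelial and mural cells. By flow cytometry, the study also checked that the isolated cells lacked CD45 and the vascular marker CD309 and carried CD90 and Sca1. The labels list a growth medium as well, whereas the study's methods describe native CFs as freshly isolated. In such bulk samples fewer cells of a type and less RNA per cell cannot be told apart.

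MMPs are zinc-dependent endopeptidases that are made as inactive proenzymes, either secreted or anchored in the plasma membrane, and cleave collagens, gelatin and other matrix proteins. TIMPs bind the active site of MMPs, and Timp3 also inhibits ADAMTS proteases. ADAMTS enzymes are secreted proteases with thrombospondin repeats that process procollagen, proteoglycans and microfibril proteins, and ADAMTSL proteins share their ancillary domains but have no protease domain. Fibroblasts are a main source of these proteins in the heart, where the balance of proteases and inhibitors shapes the turnover of the matrix.

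The libraries held between 9595701 counts (WT replicate 3) and 42101393 counts (WT replicate 1). Counts were normalized by the TMM method and are printed in CPM, that is, relative to the normalized library size, and a count of 0 allows up to 3 counts, or 0.0705 to 0.323 CPM, for counting error only. Charme had 26, 15 and 4 counts in WT replicates 1, 2 and 3 and 7, 0 and 0 counts in CharmeKO. Xist marked WT replicate 1 and CharmeKO replicates 1 and 2, and Y-linked transcripts marked the other 3, so both groups were mixed in sex, and CharmeKO replicate 1 also held 59 counts of Ddx3y beside 13553 of Xist. The labels do not tie the libraries to separate animals, and p-values measure the spread between these samples. The fibroblast markers Pdgfra (428 ± 32.1 CPM in WT and 414 ± 51.4 in CharmeKO, SD, n = 3) and Dcn (3185 ± 200 and 3907 ± 161 CPM) were abundant in both groups. Of the 10 fibroblast markers read, 6 were lower and 4 higher in CharmeKO. At an unadjusted p under 0.05 in edgeR, Col1a1, Col1a2 and Col3a1 were lower and Dcn was higher.

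Part of the family lies in a run of 10 neighbouring Mmp genes on chromosome 9, in the order Mmp13, Mmp12, Mmp1b, Mmp3, Mmp1a, Mmp10, Mmp8, Mmp27, Mmp20 and Mmp7. Of these, 5 had no count in any library, and the 2 that were tested, Mmp3 and Mmp27, were low. The 250 bases before the transcription start of 3 genes of the run are given here with those of 3 expressed members whose CharmeKO libraries were all lower than WT, since these examples differ in the motifs they hold. Sequences are from RefSeq in build GRCm38.p6, which is not the build of the counts. Mmp13 is at chr9:7272264-7272513, Mmp3 at chr9:7445572-7445821 and Mmp10 at chr9:7502092-7502341, all on the plus strand. Mmp14 is at chr14:54431348-54431597 and Adamts2 at chr11:50601835-50602084 on the plus strand, and Adamtsl4 is at chr3:95687918-95688167 on the minus strand. Each reads 5′ to 3′ in the direction of transcription, and capitals mark an AP-1 motif (TGANTCA, N being any base), a GC box (GGGCGG, or CCGCCC where it lies on the other strand) or a TATA box (TATAAA in the transcribed direction).
Mmp13: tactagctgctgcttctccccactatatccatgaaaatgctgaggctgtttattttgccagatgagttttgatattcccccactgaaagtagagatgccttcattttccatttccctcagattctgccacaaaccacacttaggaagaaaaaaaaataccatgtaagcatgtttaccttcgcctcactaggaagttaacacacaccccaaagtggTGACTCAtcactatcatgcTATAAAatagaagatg
Mmp3: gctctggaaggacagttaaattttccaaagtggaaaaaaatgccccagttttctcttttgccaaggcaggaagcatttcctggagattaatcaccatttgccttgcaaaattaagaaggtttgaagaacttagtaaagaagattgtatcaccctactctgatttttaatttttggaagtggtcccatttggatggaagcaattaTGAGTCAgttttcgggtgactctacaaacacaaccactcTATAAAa
Mmp10: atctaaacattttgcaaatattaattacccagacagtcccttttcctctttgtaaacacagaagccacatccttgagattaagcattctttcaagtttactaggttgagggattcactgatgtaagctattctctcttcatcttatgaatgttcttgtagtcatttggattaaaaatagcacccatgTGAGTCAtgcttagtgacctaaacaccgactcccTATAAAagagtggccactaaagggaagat
Mmp14: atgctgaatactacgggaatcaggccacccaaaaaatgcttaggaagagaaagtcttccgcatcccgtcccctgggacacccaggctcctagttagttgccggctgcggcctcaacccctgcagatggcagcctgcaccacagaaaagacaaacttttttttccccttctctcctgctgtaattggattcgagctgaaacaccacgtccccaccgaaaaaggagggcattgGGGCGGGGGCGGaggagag
Adamts2: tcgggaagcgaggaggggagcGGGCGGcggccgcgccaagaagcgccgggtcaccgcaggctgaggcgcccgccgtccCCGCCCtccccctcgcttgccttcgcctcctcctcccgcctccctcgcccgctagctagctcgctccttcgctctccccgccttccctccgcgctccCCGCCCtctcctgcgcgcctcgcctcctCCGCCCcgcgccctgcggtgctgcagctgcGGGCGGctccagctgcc
Adamtsl4: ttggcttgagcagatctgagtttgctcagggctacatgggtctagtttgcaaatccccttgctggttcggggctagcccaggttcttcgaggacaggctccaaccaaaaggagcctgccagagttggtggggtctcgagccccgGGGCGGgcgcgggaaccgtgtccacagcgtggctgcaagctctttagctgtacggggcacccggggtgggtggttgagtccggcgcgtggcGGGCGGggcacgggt

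The RefSeq table held promoters of 36 of the 51 members, and the motifs were counted in all 32851 promoters of the table over the same 250 bases. AP-1, the site of Fos and Jun proteins, was present in 8 of the 12 promoters of the chromosome 9 run (66.7%), in 0 of the 27 promoters of members outside it and in 6.75% of all promoters. The TATA box was present in 7 of 12 promoters of the run (58.3%), in 3 of 27 outside it (11.1%) and in 7.59% of all. The GC box, bound by Sp family factors, was absent from the 12 promoters of the run, present in 20 of the 27 others (74.1%) and in 32.7% of all. A TEAD motif, GGAATG on either strand, was found in 0 of the 12, in 2 of the 27 and in 12.6% of all. In the 3 printed promoters of the run, the AP-1 motif began 35 bases before the start in Mmp13, 46 in Mmp3 and 63 in Mmp10, each followed by a TATA box. Adamts2 held 5 GC boxes, and Mmp14 and Adamtsl4 held 2 each. The 3 were chosen for their GC boxes, which were present in 5 of the 8 promoters of members called lower by DESeq2 (62.5%). These promoters belonged to 7 genes, 5 of them with a GC box, since Mmp23 was listed more than once and Mmp2 had no promoter in the RefSeq table. The promoters of Adamts17 and Mmp23 held no GC box. Base composition differed as well. G and C made up 40.4% of the bases in Mmp13, 37.6% in Mmp3 and 37.2% in Mmp10. They made up 55.2% in Mmp14, 78.0% in Adamts2 and 64.4% in Adamtsl4, and the median over all promoters was 52.4%. The part of base composition in the motif counts was not tested. No motif shared a base with one of another kind, and a match of letters is no evidence of binding.

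**Figure D1:**
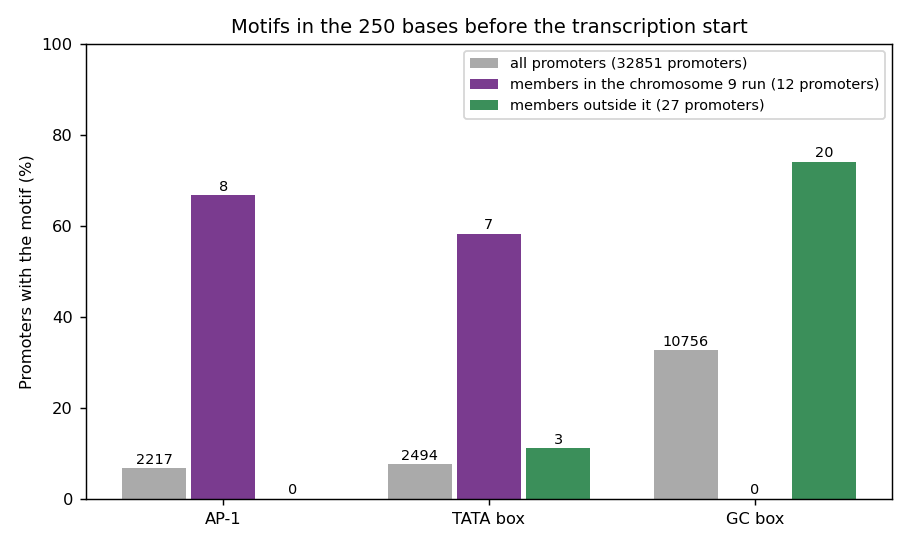
Share of promoters (vertical axis, %) with an AP-1 motif, a TATA box or a GC box in the 250 bases before the start, for all 32851 promoters (grey), the 12 of the chromosome 9 run (purple) and the 27 of the other members (green), with the number of promoters above each bar. AP-1 motifs are in 8 of the 12 promoters of the run and in 0 of the 27 others, and GC boxes show the opposite distribution, with 0 of 12 and 20 of 27.

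Levels of different members were compared as CPM per kilobase of exon. A set of 4 genes was above the rest: the gelatinase gene Mmp2 (375 CPM per kilobase over all 6 libraries), the proteoglycanase gene Adamts1 (288), and the inhibitor genes Timp2 (274) and Timp3 (228). Together they made up 73.0% of the summed level of the tested members. Adamts2, the next in order, had 48.9 CPM per kilobase, and its range over the libraries did not overlap that of Timp3. A further 13 members lay between 10 and 100 CPM per kilobase, 14 between 1 and 10, and 7 below 1. Of the 37 pairs of neighbours in this order, 33 overlapped in their ranges over the libraries, so the exact rank of most members is not resolved. The other pairs that did not overlap were Adamts9 and Mmp19, Adamtsl1 and Mmp16, and Mmp25 and Adamts20.

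The 13 untested members had at most 30 counts over the 6 libraries. The 6 without any count were Adamts13, which encodes the von Willebrand factor-cleaving protease, the collagenase genes Mmp1a and Mmp1b, the stromelysin gene Mmp10, the enamel protease gene Mmp20 and the matrilysin gene Mmp7. Among the collagenases, Mmp13 had 2 counts in CharmeKO replicate 3 and 0 elsewhere. Mmp8, the neutrophil collagenase, had 18, 0 and 0 counts in WT and 4, 0 and 2 in CharmeKO. No interstitial collagenase was therefore tested. Adamts16 had 30 counts in all, Mmp21 and Mmp24 had 3 each, and Mmp12 and Adamts18 had 2 each.

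**Figure D2:**
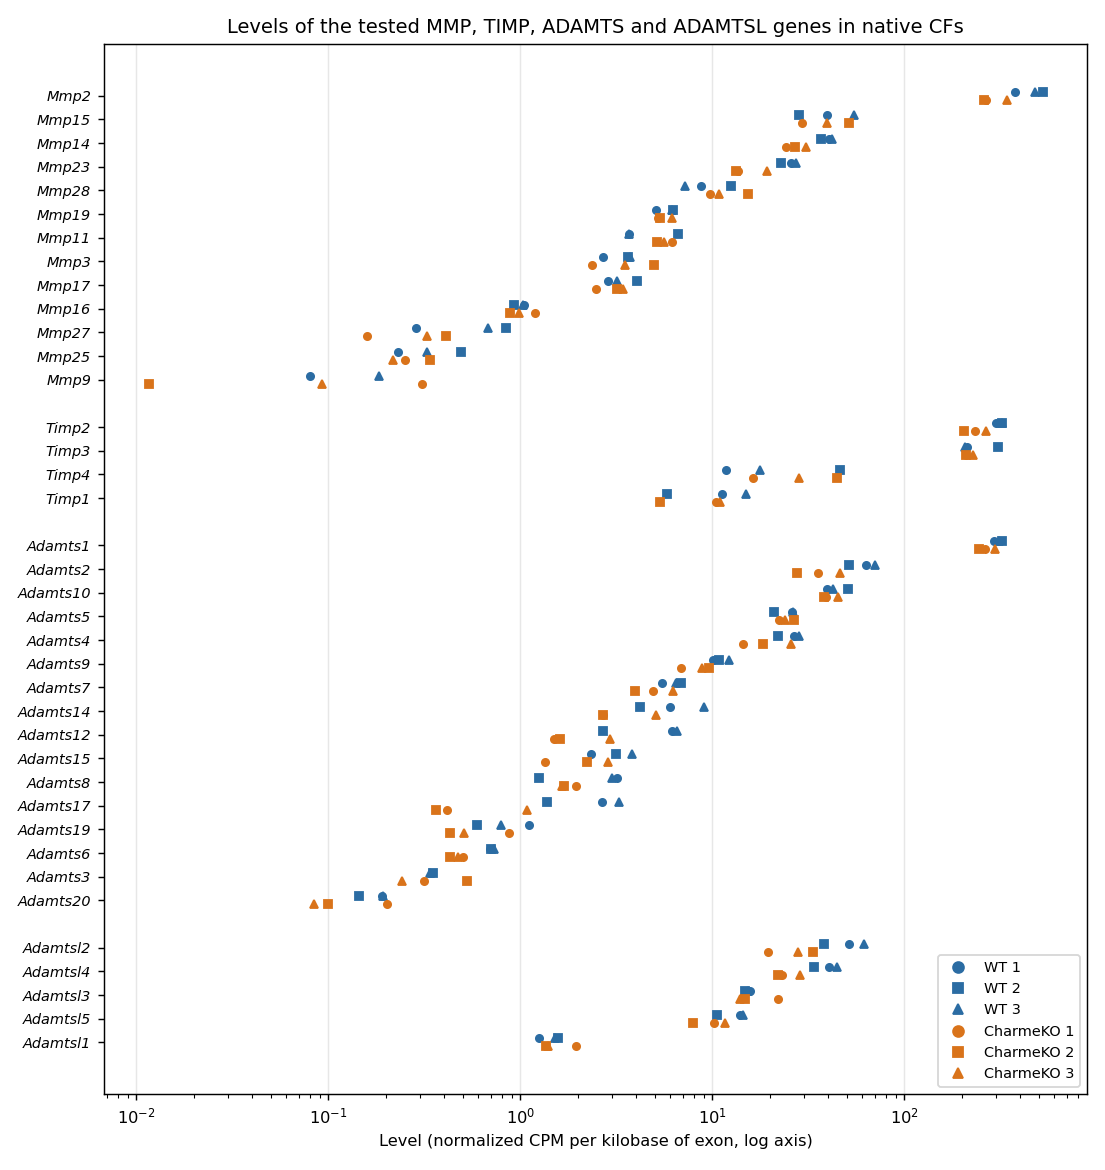
Level of the 38 tested members in each library (horizontal axis, normalized CPM per kilobase of exon, log scale), with WT in blue, CharmeKO in orange and one symbol per replicate number. The value of 0 for Mmp9 in WT replicate 2 cannot be drawn on this axis. Mmp2, Timp2, Timp3 and Adamts1 form the top of the scale, and the CharmeKO points of Mmp2, Mmp14, Mmp23 and Timp2 lie to the left of all WT points.

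CharmeKO was compared with WT over all 15789 tested genes. In the quasi-likelihood test of edgeR (Benjamini-Hochberg adjustment), 131 genes (0.830%) were DEGs at an adjusted p under 0.05, and 0 of the 38 members were among them. At an unadjusted p under 0.05 in the same test, 13 members were lower in CharmeKO and 0 were higher, against 6.87% of all tested genes lower. Their adjusted p ran from 0.0583 to 0.352. DESeq2 called 8 members lower at an adjusted p under 0.05 and 0 higher, against 1.52% of all tested genes called lower. The CharmeKO libraries were all below the WT libraries in 10 members (background 8.59%) and all above them in 0 (background 9.57%). In all, 29 of 38 members had a log2 fold change below 0, against 48.8% of all tested genes, and the median was -0.38 against 0.0096.

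The calls depended on the test and on single libraries. Without WT replicate 2 edgeR called 8 members, all lower, against 1.40% of all tested genes called lower in the same fit. Without CharmeKO replicate 3 it called 5, all lower, against 0.773%, whereas it called 0 with each of the other 4 libraries left out in turn. WT replicate 2 was the lowest WT library in 9 of the 13 members with an unadjusted p under 0.05, and CharmeKO replicate 3 was the highest CharmeKO library in 10 of them. WT replicate 3 was the highest WT library in 11 of the 13, and CharmeKO replicate 2 the lowest CharmeKO library in 9. Among these 13 members replicate 2 was thus mostly low and replicate 3 mostly high in both groups. Over all 38 tested members the order was weaker. There WT replicate 2 was the lowest WT library in 19 and the highest in 15. CharmeKO replicate 2 was the lowest CharmeKO library in 18 and the highest in 10. Replicate 3 was the highest library in 19 members in each group. The source of this order was not tested. Abundance moved with the share called. Among genes of at least 10 CPM, 2.06% of 8914 were called lower by DESeq2 and 10.2% did not overlap in that direction, and the 28 members at that level included 8 and 9 such genes. In both parts of the split by Xist and Y-linked transcripts, 23 of the 38 members and 29.9% of all tested genes were lower in CharmeKO. One group has a single library in each part (WT replicate 1, and CharmeKO replicate 3), so these are values without a test.

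**Figure D3:**
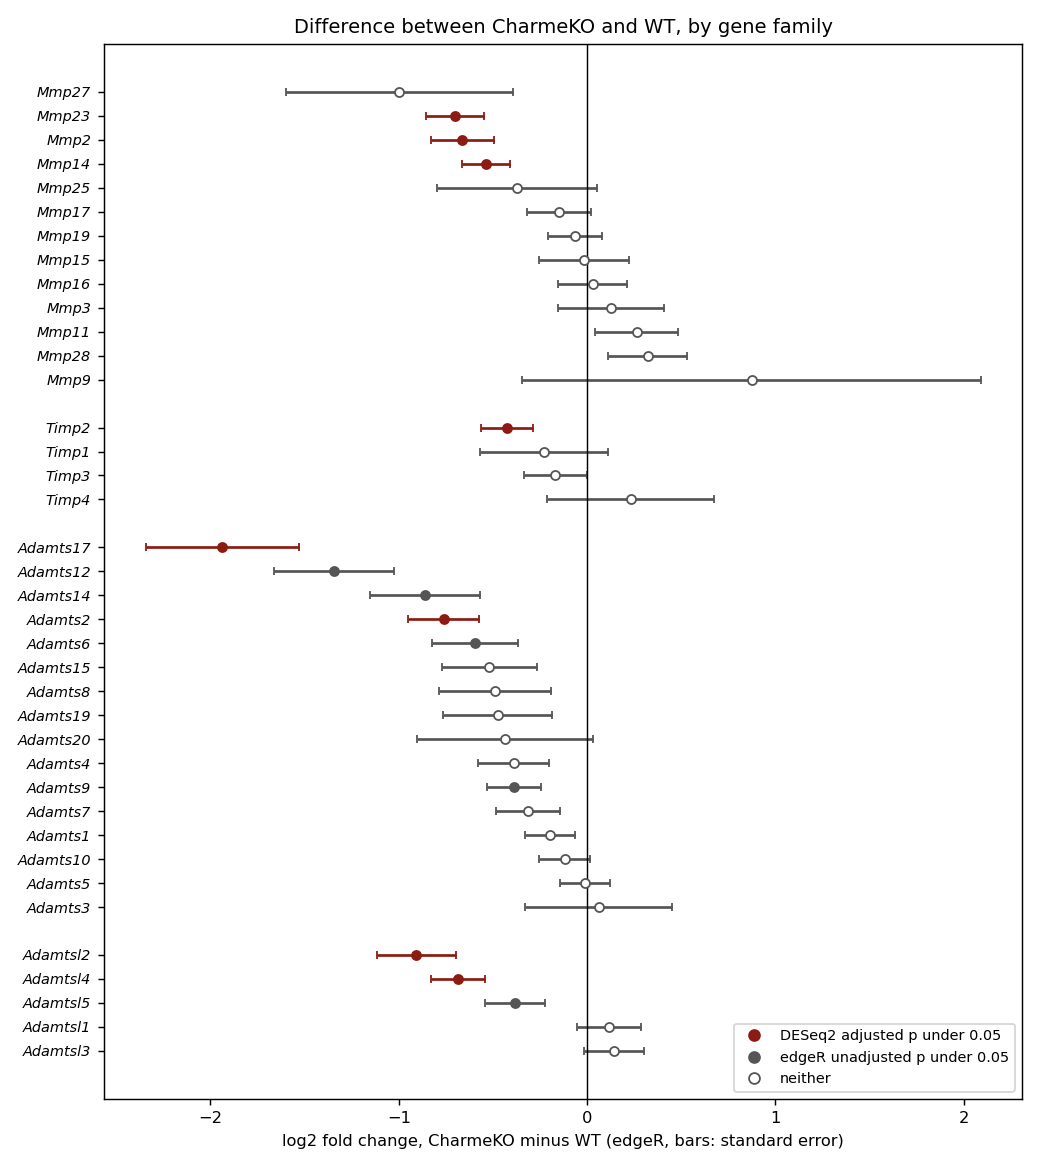
Fitted log2 fold change of CharmeKO against WT (horizontal axis, edgeR, with standard error bars) for the 38 tested members by family. Dark red marks the 8 members called by DESeq2, grey filled points the others with an unadjusted p under 0.05 in edgeR, and open points neither. Filled points all lie below 0, between -1.94 for Adamts17 and -0.38 for Adamtsl5.

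Among the MMPs, the gelatinase and the membrane-type protease that activates it were lower in CharmeKO. Mmp2 encodes the gelatinase that fibroblasts make constitutively. It had 1266, 1770 and 1608 CPM in the WT libraries and 898, 877 and 1158 CPM in the CharmeKO libraries. Every CharmeKO library was below every WT library, with a log2 fold change of -0.66 (SE 0.17, edgeR adjusted p = 0.123, DESeq2 adjusted p = 0.00227, and 0.00227 to 0.471 over the alternatives). Mmp14 encodes the membrane-bound enzyme that, with Timp2, converts pro-Mmp2 to its active form and cleaves fibrillar collagen itself. It had 241, 219 and 249 CPM in WT and 145, 161 and 183 CPM in CharmeKO. Here too the groups did not overlap, with a log2 fold change of -0.54 (SE 0.13, edgeR adjusted p = 0.102, DESeq2 adjusted p = 0.00367, and 0.00367 to 0.404 over the alternatives). Mmp23, whose protein carries an immunoglobulin-like domain in place of the hemopexin domain, had 60.3, 53.0 and 63.4 CPM in WT and 31.9, 31.2 and 45.2 CPM in CharmeKO. Its log2 fold change was -0.70 (SE 0.15, edgeR adjusted p = 0.0704, DESeq2 adjusted p = 0.00404, and 4.27e-05 to 0.331 over the alternatives), with no overlap between the groups.

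The other 10 tested MMPs were not called by either test and had log2 fold changes from -0.997 (SE 0.60, Mmp27) to 0.87 (SE 1.22, Mmp9). Mmp15, a second membrane-type enzyme and the MMP next in level, varied more within the groups than between them. It had 213, 152 and 294 CPM in WT and 158, 279 and 214 CPM in CharmeKO, with a log2 fold change of -0.02 (SE 0.24), which became 0.25 when WT replicate 3 was left out and 0.17 when CharmeKO replicate 1 was. The further membrane-type members Mmp16 (0.03, SE 0.18), Mmp17 (-0.15, SE 0.17) and Mmp25 (-0.37, SE 0.43) lay within 1 SE of 0 on the log2 scale. The stromelysin genes Mmp3 (0.13, SE 0.28) and Mmp11 (0.26, SE 0.22), and Mmp28, which encodes epilysin (0.32, SE 0.21), had higher means in CharmeKO. Mmp19 had a log2 fold change of -0.06 (SE 0.14).

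Mmp9, the gelatinase best known from neutrophils and macrophages, was near the limit of detection. It had 12, 0 and 6 counts in WT and 31, 1 and 10 counts in CharmeKO. The neutrophil markers S100a8 (13, 0 and 1 counts in WT, 16, 4 and 15 in CharmeKO) and S100a9 (26, 5 and 4, then 48, 25 and 5) were also highest in replicate 1 of CharmeKO. The other leukocyte markers did not all share this order. Summed over all 10, the level was 52.8, 28.1 and 45.4 CPM in WT and 46.0, 51.2 and 38.6 in CharmeKO. The sum was thus highest in WT replicate 1. Of the 8 tested markers 2 were lower and 6 higher in CharmeKO, 0 were called, and none of the 10 was at 0 in every library. The part of leukocytes in the Mmp9 counts was not tested.

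Of the 4 inhibitors, Timp2 was lower in CharmeKO. Timp2 both inhibits Mmp2 and takes part in its activation by Mmp14, and its gene overlaps Cep295nl on the same strand in the GENCODE M21 annotation, so that reads in the overlap cannot be assigned with certainty. It had 1163, 1259 and 1249 CPM in WT and 909, 794 and 1033 CPM in CharmeKO. The groups did not overlap and the log2 fold change was -0.42 (SE 0.14, edgeR adjusted p = 0.238, DESeq2 adjusted p = 0.0361, and 0.0361 to 0.639 over the alternatives). It was called by DESeq2 alone among the alternatives.

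The remaining inhibitors overlapped between the groups. Timp3, whose protein is bound to the matrix, had 1731, 2490 and 1685 CPM in WT and 1696, 1709 and 1853 CPM in CharmeKO. All libraries but WT replicate 2 lay in a narrow band, and the log2 fold change of -0.17 (SE 0.17) turned to 0.04 without that library. Timp1, the inhibitor that is inducible in many injured tissues and is X-linked, was low, with 9.92, 5.17 and 13.3 CPM in WT and 9.29, 4.75 and 9.70 CPM in CharmeKO (log2 fold change -0.23, SE 0.34). Replicate 2 of each group was the lowest library of its group.

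Timp4, an inhibitor enriched in heart and vessels, had 69.6, 272 and 104.6 CPM in WT and 95.4, 263 and 167 CPM in CharmeKO. Its libraries differed more within each group than the groups did, and the log2 fold change of 0.23 (SE 0.44, edgeR adjusted p = 0.873) became -0.11 with WT replicate 1 left out and -0.18 with CharmeKO replicate 2 left out. Replicate 2 was the highest library in both groups. The summed level of the 10 endothelial markers followed the same order, with 9159, 10725 and 8959 CPM in WT and 9329, 11661 and 10681 CPM in CharmeKO, except that WT replicate 3 lay below WT replicate 1. Of these markers 4 were lower and 6 higher in CharmeKO, 0 were called, and none was at 0. In 4 of the 10 (Tek, Emcn, Fabp4 and Kdr) the CharmeKO libraries were all above WT, and in 0 all below. The share all above was 9.57% over all tested genes. At an unadjusted p under 0.05 in edgeR, 3 markers were higher and 0 lower, against 5.90% of all tested genes higher. The part of endothelial cells in the Timp4 level was not tested.

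**Figure D4:**
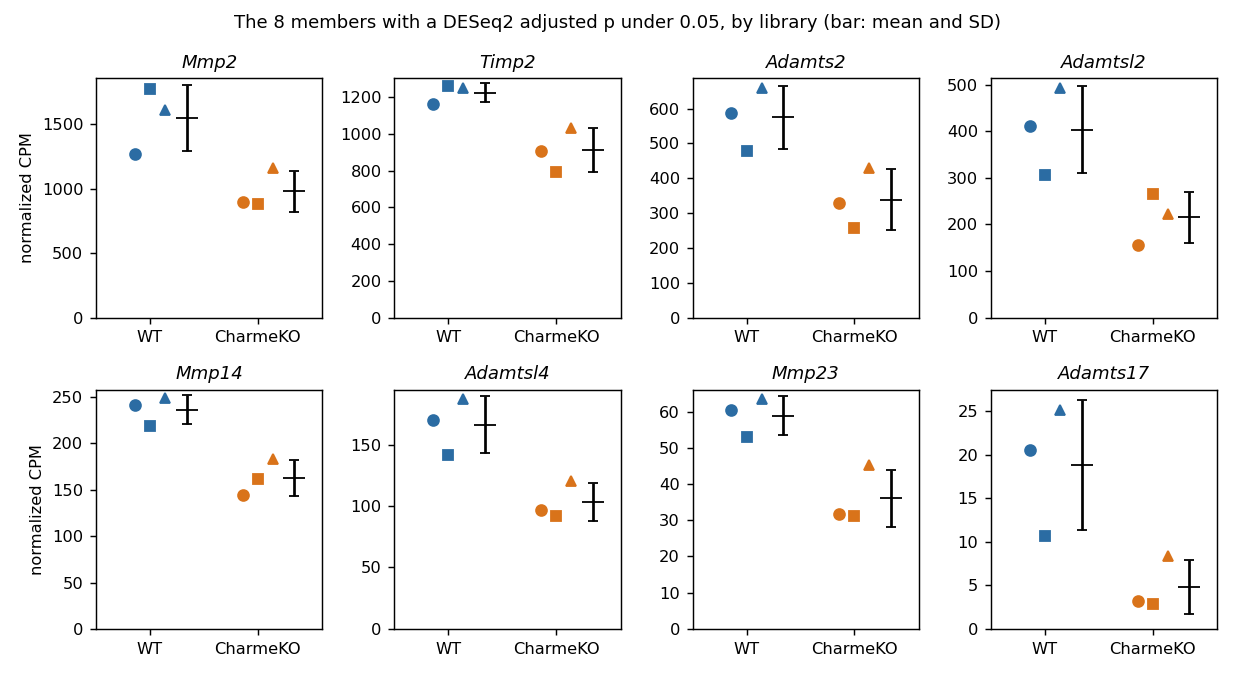
Normalized CPM (vertical axes, from 0) of the 8 members called by DESeq2, 1 point per library with WT in blue and CharmeKO in orange, and the mean with SD beside each group. In every panel the 3 CharmeKO points lie below the 3 WT points, and CharmeKO replicate 3 (triangle) is the highest CharmeKO library in 7 of the 8 panels.

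The log2 ratio of Mmp2 to Timp2 within a library, taken on CPM, was 0.33 ± 0.19 in WT and 0.10 ± 0.10 in CharmeKO (SD, n = 3), and CharmeKO minus WT was -0.23 (two-sided exact permutation p = 0.3, adjusted p = 0.75 over 3 ratios). Mmp14 to Timp2 was -2.37 ± 0.14 and -2.48 ± 0.17, a difference of -0.11 (exact permutation p = 0.5, adjusted p = 0.75). Timp1 to Timp3 was -7.78 ± 1.01 and -7.86 ± 0.55, a difference of -0.081 (exact permutation p = 0.8, adjusted p = 0.8). With 3 libraries against 3 the smallest p is 0.1, so none of these ratios could pass the threshold.

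In the ADAMTS family 15 of the 16 tested genes had a log2 fold change below 0, and DESeq2 called 2 of them, Adamts17 and Adamts2. Adamts17, linked to fibrillin microfibrils and mutated in a Weill-Marchesani-like syndrome, had 20.6, 10.6 and 25.2 CPM in WT and 3.21, 2.82 and 8.42 CPM in CharmeKO. The groups did not overlap and the log2 fold change was -1.94 (SE 0.41, edgeR adjusted p = 0.0583, DESeq2 adjusted p = 0.0494, and 4.5e-18 to 0.285 over the alternatives). With one library left out the log2 fold change ran from -2.62 (without CharmeKO replicate 3) to -1.67 (without CharmeKO replicate 2). The edgeR adjusted p ran from 0.00771 to 0.285 over those fits. The 4.5e-18 came from the fit without a filter on low counts or from the one with the replicate block. Its difference was -2.73 within the libraries with Xist transcripts and -1.08 within those with Y-linked transcripts. Adamts17 also shares its strand with the annotated gene Gm17909. Adamts6, another gene of this microfibril-related group, had 5.41, 5.48 and 5.70 CPM in WT and 3.91, 3.35 and 3.68 CPM in CharmeKO. Both groups were tight and apart, with a log2 fold change of -0.60 (SE 0.23, edgeR adjusted p = 0.305, DESeq2 adjusted p = 0.277, and 0.275 to 0.654 over the alternatives). Adamts10, which is also mutated in Weill-Marchesani syndrome and is far more abundant, had 325, 422 and 350 CPM in WT and 324, 315 and 370 CPM in CharmeKO (log2 fold change -0.12, SE 0.14). Adamts19 had a log2 fold change of -0.47 (SE 0.29).

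The procollagen N-proteinases remove the amino-terminal propeptide of fibrillar procollagens, a step before fibrils assemble. Adamts2, the most abundant of the 3, had 588, 478 and 659 CPM in WT and 330, 257 and 429 CPM in CharmeKO. No CharmeKO library reached the lowest WT library, and the log2 fold change was -0.76 (SE 0.19, edgeR adjusted p = 0.118, DESeq2 adjusted p = 0.00240, and 4.29e-05 to 0.419 over the alternatives). Adamts14 had 31.3, 21.8 and 46.8 CPM in WT and 13.9, 13.9 and 26.5 CPM in CharmeKO. CharmeKO replicate 3 was above WT replicate 2, and the log2 fold change was -0.86 (SE 0.29, edgeR adjusted p = 0.257, DESeq2 adjusted p = 0.0611, and 6.99e-06 to 0.644 over the alternatives). It was called with the replicate number as a block (adjusted p = 0.0104) and without a filter on low counts (adjusted p = 6.99e-06). Adamts3 was low (1.87 ± 0.038 CPM in WT and 1.96 ± 0.80 in CharmeKO, SD, n = 3), with a log2 fold change of 0.06 (SE 0.39). Beside these, Col1a1, a substrate chain and fibroblast marker, had 4054 ± 811 CPM in WT and 2380 ± 766 in CharmeKO (log2 fold change -0.77, SE 0.23, edgeR adjusted p = 0.189, DESeq2 adjusted p = 0.0102).

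Adamts12 and Adamts7 encode the proteases that cleave cartilage oligomeric matrix protein (COMP). Adamts12 had 67.2, 29.5 and 71.3 CPM in WT and 16.2, 17.6 and 32.0 CPM in CharmeKO. WT replicate 2 was below CharmeKO replicate 3, so the groups overlapped, and the log2 fold change was -1.34 (SE 0.32, edgeR adjusted p = 0.104, DESeq2 adjusted p = 0.109, and 8.44e-18 to 0.417 over the alternatives). It was called in 4 alternatives. The edgeR adjusted p was 8.44e-18 without a filter on low counts and 0.0101 with the replicate number as a block. The other calls were without WT replicate 2 and without CharmeKO replicate 3. With one library left out the edgeR adjusted p was 0.00306 or more. Adamts7 had a log2 fold change of -0.31 (SE 0.17). Comp itself had 24.7 ± 5.80 CPM in WT and 18.5 ± 5.23 in CharmeKO (edgeR adjusted p = 0.445).

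The 7 proteoglycanases, which cleave versican and aggrecan, all had log2 fold changes below 0, from -0.52 to -0.01, and 0 were called by either test. Only Adamts9, a versican-cleaving protease, had an unadjusted p under 0.05 among them. It had 151, 163 and 184 CPM in WT and 103.2, 145 and 133 CPM in CharmeKO, without overlap (log2 fold change -0.39, SE 0.14, edgeR adjusted p = 0.292, DESeq2 adjusted p = 0.178, and 0.123 to 0.647 over the alternatives). Adamts1, the most abundant, had 1548, 1706 and 1640 CPM in WT and 1390, 1297 and 1579 CPM in CharmeKO (log2 fold change -0.20, SE 0.13). CharmeKO replicate 3 lay above WT replicate 1. Adamts5, the neighbour of Adamts1 on chromosome 16, was the least different of the group, with 264 ± 32.2 CPM in WT and 262 ± 23.1 in CharmeKO. The log2 fold changes of Adamts15 (-0.52, SE 0.25), Adamts8 (-0.49, SE 0.30), Adamts20 (-0.44, SE 0.47) and Adamts4 (-0.39, SE 0.19) did not pass either test. Over the alternatives, Adamts8 was called in 1 fit with a library left out (edgeR adjusted p = 0.0331). Adamts15 was called in 1 alternative, in which all libraries were kept (edgeR adjusted p = 0.0321).

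Among the ADAMTSL genes, Adamtsl2 and Adamtsl4 were lower and Adamtsl1 and Adamtsl3 were not. Adamtsl2, a microfibril-binding protein mutated in geleophysic dysplasia, had 411, 306 and 492 CPM in WT and 156, 266 and 223 CPM in CharmeKO. The groups did not overlap and the log2 fold change was -0.91 (SE 0.21, edgeR adjusted p = 0.0940, DESeq2 adjusted p = 0.000672, and 1.07e-07 to 0.348 over the alternatives). Adamtsl4, which binds fibrillin and is mutated in ectopia lentis, had 170, 141 and 187 CPM in WT and 97.1, 92.1 and 121 CPM in CharmeKO. It too was separated, with a log2 fold change of -0.69 (SE 0.14, edgeR adjusted p = 0.0598, DESeq2 adjusted p = 0.000876, and 8.29e-05 to 0.321 over the alternatives). Adamtsl5 had 65.8, 49.8 and 68.1 CPM in WT and 48.3, 37.4 and 54.8 CPM in CharmeKO. CharmeKO replicate 3 was above WT replicate 2, and the log2 fold change was -0.38 (SE 0.16, edgeR adjusted p = 0.352, DESeq2 adjusted p = 0.307, and 0.0884 to 0.765 over the alternatives). Adamtsl3 had 121, 115 and 118 CPM in WT and 169, 114 and 108 CPM in CharmeKO, the highest value being CharmeKO replicate 1 (log2 fold change 0.14, SE 0.16). Adamtsl1 was low and had a log2 fold change of 0.12 (SE 0.17).

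Summed per kilobase, the MMP genes gave 594 ± 76.4 CPM per kilobase in WT and 404 ± 53.5 in CharmeKO (SD, n = 3). The TIMP genes gave 592 ± 78.3 and 488 ± 38.2, the ADAMTS genes 503 ± 19.3 and 414 ± 47.8, and the ADAMTSL genes 120 ± 19.5 and 79.8 ± 3.49. All 4 sums were lower on average in CharmeKO, by -0.55, -0.28, -0.28 and -0.58 as log2 ratios of the means. A sum follows its most abundant genes. The median log2 fold change of the tested genes was -0.06 for MMP, -0.20 for TIMP, -0.46 for ADAMTS and -0.38 for ADAMTSL. Of the 13 tested MMP genes, 8 were lower and 5 higher. On this scale the groups were apart for each family, with the narrowest gap in the TIMP sum, whose highest CharmeKO library (532) lay just below the lowest WT library (534). As sums of CPM without division by length the TIMP genes overlapped, with 2974 to 4026 CPM in WT and 2710 to 3063 in CharmeKO. The most abundant contributors were Mmp2 to the MMP sum, Timp2 and Timp3 to the TIMP sum, Adamts1 to the ADAMTS sum, and Adamtsl2 and Adamtsl4 to the ADAMTSL sum. The sums were not tested.

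**Figure D5:**
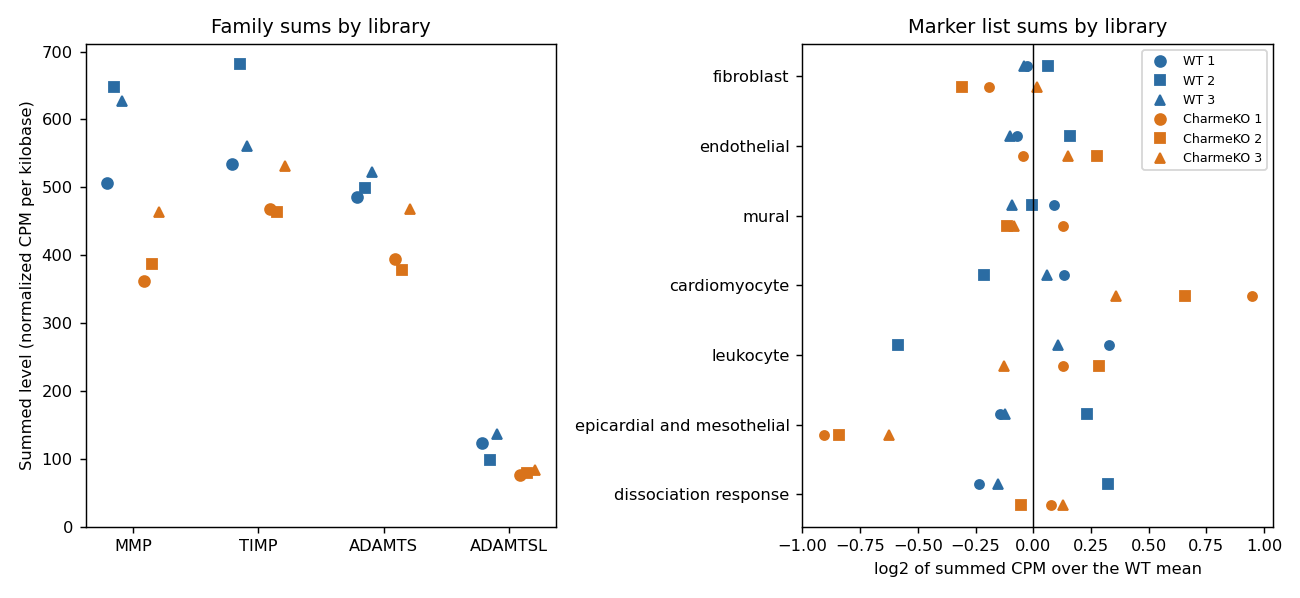
Left, summed level of each family per library (CPM per kilobase, axis from 0). Right, summed CPM of each cell type marker list per library as the log2 ratio to the WT mean. WT is blue, CharmeKO orange, with one symbol per replicate number. The MMP sums were 506 to 648 in WT and 361 to 464 in CharmeKO, and on the right the cardiomyocyte and the epicardial and mesothelial sums did not overlap between the groups.

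Other cell types could enter these levels, and their markers were read in the same libraries. The 10 fibroblast markers summed to 40107 to 43011 CPM in WT and 33241 to 41621 in CharmeKO, with 6 lower and 4 higher and 1 (Col1a1) called by DESeq2. The 10 mural markers summed to 2635 to 2995 and 2595 to 3070 CPM, with 5 lower and 5 higher. Of these, Cspg4 was called lower by DESeq2 (129 ± 5.65 and 86.9 ± 17.5 CPM, adjusted p = 0.0158, edgeR adjusted p = 0.126), and the CharmeKO libraries were all below WT in Cspg4, Notch3 and Pdgfrb and all above in Tagln. The 10 cardiomyocyte markers were higher in 10 of 10, at 356 to 453 CPM in WT and 529 to 797 in CharmeKO, and edgeR called 3, among them Myh6 (59.1 ± 3.57 and 106.3 ± 24.5 CPM). The 6 epicardial and mesothelial markers were lower in 6 of 6, at 57.8 to 75.0 and 34.02 to 41.4 CPM, and Wt1 was called by edgeR (50.8 ± 4.02 and 32.3 ± 1.05 CPM, adjusted p = 0.0189). The dissociation response genes, which include the AP-1 genes Fos and Jun, summed to 35268 to 51915 and 39995 to 45400 CPM, with Hspa1a and Hspa1b called higher by edgeR. No marker of these lists was at 0 in every library. The part of these differences in the members' values was not tested.

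The genes that activate, inhibit or clear these proteases were read from lists drawn up by function. In the activation and plasminogen list, 9 of 11 tested genes had a log2 fold change below 0 and 0 were called by edgeR or DESeq2, with 2 at an unadjusted p under 0.05 in edgeR, Furin and Plaur. Furin, the proprotein convertase that activates membrane-type MMPs and ADAMTS proteases, had 219 ± 32.5 CPM in WT and 166 ± 17.7 in CharmeKO (log2 fold change -0.40, SE 0.14, edgeR adjusted p = 0.270). Plaur, the urokinase receptor, had 70.9 ± 4.44 and 51.1 ± 16.4 CPM (log2 fold change -0.47, SE 0.18). The 3 CharmeKO libraries of Furin were all below the WT libraries.

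Among other inhibitors and clearance receptors, edgeR called 0 of 7, with 3 at an unadjusted p under 0.05, and DESeq2 called those 3 lower. Lrp1, the endocytic receptor that clears MMPs, ADAMTS proteases and TIMPs, had 4571 ± 411 CPM in WT and 3151 ± 357 in CharmeKO (log2 fold change -0.54, SE 0.15, edgeR adjusted p = 0.157, DESeq2 adjusted p = 0.00283). Papln, which encodes the ADAMTS-related protein papilin, had 232 ± 40.1 and 159 ± 16.97 CPM (log2 fold change -0.55, DESeq2 adjusted p = 0.0201). The third, Cst6, a cystatin, was low at 4.71 ± 1.30 and 1.90 ± 0.24 CPM (log2 fold change -1.31, DESeq2 adjusted p = 0.0101). The membrane-anchored MMP inhibitor Reck had 78.0 ± 4.33 and 75.4 ± 3.56 CPM.

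In the ADAM and astacin list, edgeR called 0 of 13, with 2 at an unadjusted p under 0.05, and DESeq2 called 1 lower and 1 higher. Bmp1, the procollagen C-proteinase, which acts at the other end of procollagen from Adamts2, had 434 ± 50.5 CPM in WT and 291 ± 39.6 in CharmeKO (log2 fold change -0.58, SE 0.14, edgeR adjusted p = 0.117, DESeq2 adjusted p = 0.0040). Its relative Tll2 had 10.7 ± 1.91 and 18.4 ± 3.89 CPM (log2 fold change 0.80, SE 0.19, edgeR adjusted p = 0.111, DESeq2 adjusted p = 0.0203). Of the 9 cathepsin and serine matrix proteases, 0 were called by either test, and 2 were higher at an unadjusted p under 0.05.

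Among the substrates and fibrillin partners of ADAMTS proteins, edgeR called 0 of 10, with 4 lower at an unadjusted p under 0.05, and DESeq2 called Vwf lower (636 ± 56.9 and 452 ± 49.5 CPM, log2 fold change -0.49, SE 0.13, DESeq2 adjusted p = 0.00906). Vwf is an endothelial product and the substrate of Adamts13, which had no count. Fbn1, the main microfibril component, had 2359 ± 884 CPM in WT and 1154 ± 334 in CharmeKO (log2 fold change -1.03, SE 0.27, edgeR adjusted p = 0.143, DESeq2 adjusted p = 0.165). Versican (Vcan) had 229 ± 100.9 and 187 ± 34.5 CPM (log2 fold change -0.29, SE 0.29).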

How the data were processed

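Poly(A)-selected, directional libraries of native CFs were sequenced for 3 WT and 3 CharmeKO samples, grouped by the genotype in the labels. Per the study's methods and processing notes, the authors mapped quality-filtered reads with STAR, whose gene counts used an Ensembl annotation (release 87) with Charme added and the reverse strand setting, and deposited the raw counts per gene without normalization or filter. The notes name GRCm39 and also GRCh38, and DESeq2.

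Tests covered genes with 10 or more counts in 2 or more libraries and used edgeR 4.0.16 (TMM, quasi-likelihood, R 4.3.3) over the whole table, and p-values adjusted by the Benjamini-Hochberg method were called under 0.05. The biological coefficient of variation was 20.2%. DESeq2 1.42.0 was an alternative, as were other size factors and filters, a replicate block, a term for the Xist and Y-linked split, and each library left out in turn. The values within that split, and the share called among genes of at least 10 CPM, were added after the data were seen. Standard errors were derived from the F statistics, and the scripts were tested on simulated counts. Lengths are the summed exons of GENCODE M21 on GRCm38. Promoter motifs were read from RefSeq promoters. Figures were drawn with matplotlib 3.10.9.

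Members and lists were chosen with earlier results of these data known. Values in every library are given for members called by either test or with an unadjusted p under 0.05, for all TIMPs, and for the 3 most abundant MMP, ADAMTS and ADAMTSL genes. Values of Col1a1, Cspg4, Pdgfra, Dcn, Myh6, Comp, Reck, Fbn1, Vcan, Mmp8, Mmp9, S100a8 and S100a9 were picked beyond that rule after they were seen.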

Additional observations from a re-analysis of the deposited data

How the results depend on the processing

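The number of DEGs was 131 by edgeR, 394 by DESeq2 and 302 with the replicate number as a block, each of 15789 tested genes. It was 699 of 24579 genes without a filter on low counts, and 61 to 349 with one library left out. The number of members among them was 0, and it was 8 by DESeq2, 10 without a filter, 9 with the replicate block, and 0 to 8 with one library left out (8 without WT replicate 2, 5 without CharmeKO replicate 3). All of these members were lower in CharmeKO. The lowest adjusted p of Adamts12 and Adamts14 over the alternatives came from the fit without a filter. For Adamts17, Adamts2, Adamtsl2, Adamtsl4 and Mmp23 it came from that fit or the one with the replicate block. With one library left out, the lowest edgeR adjusted p was 0.0280 for Adamts2, 0.0123 for Adamtsl2, 0.0104 for Adamtsl4 and 0.0123 for Mmp23. The labels number the replicates but name no pairs, and the main fit did not take the numbers as pairs. The deviations of same-numbered libraries correlated by 0.216, 0.0535 and 0.161, against -0.223 to 0.0391 for the other combinations. Every library correlated best with its own number, so whether the numbers mark pairs is not settled, and the replicate block is given as an alternative. With one library left out the median log2 fold change of the members ran from -0.40 to -0.28. Over 530 values of single members under the alternatives, 468 kept their direction and side of the threshold, 40 passed it in the same direction, and 22 changed sign, in 13 genes that no test called. Adamts5 became 0.00017 with upper-quartile normalization, and with the term for the Xist and Y-linked split Adamts3 became -0.095 and Mmp19 0.018. With one library left out the log2 fold change ran from -0.11 to 0.048 for Adamts5, -0.17 to 0.36 for Mmp3, -0.18 to 1.01 for Timp4, -0.088 to 0.12 for Mmp16, -0.25 to 0.011 for Mmp17, -0.27 to 0.035 for Timp3, -0.24 to 0.25 for Mmp15, -0.53 to 0.063 for Timp1, -0.065 to 0.21 for Adamtsl1, -0.084 to 0.26 for Adamtsl3, -0.46 to 1.65 for Mmp9 and -0.30 to 0.28 for Adamts3. The difference of the log2 ratio of Timp1 to Timp3 ran from -0.65 to 0.32. The cause of these shifts was not tested. The 13 untested members had at most 30 counts each, and those below 1 CPM per kilobase ran from 60 counts for Mmp9 to 1700 for Adamts19. WT replicate 3 had the fewest counts of all libraries, and the part of depth in these low levels was not tested.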
